A study of Mus musculus with 12 samples.

Results

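The proteins of the cytosolic ribosome were followed in whole livers of female C57BL/6 mice. The genes were chosen by name: protein-coding mouse genes with an Rpl or Rps symbol, together with Rplp0, Rplp1, Rplp2 and Rpsa. Genes were kept if 3 or more of the 12 libraries had a deposited log2 value of 3.32 (log2 of 10) or higher. Of 80 genes with such a symbol, 64 passed, out of 12637 genes of all kinds that passed the same filter. They are 42 proteins of the large subunit and 22 of the small subunit, and each of the 64 was above 3.32 in all 12 libraries.

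The 12 RNA sequencing libraries fall into 4 groups of 3. The curcumin group received liposomes loaded with curcumin, a plant polyphenol, and the calcitriol group received liposomes loaded with calcitriol, the hormonal form of vitamin D. Both were injected into a vein in weeks 12 and 13 of a high fat, high sugar diet (HFHS) that ran for 14 weeks, and 2 weeks separated the first injection from collection of the liver. The HFHS group has the diet in its title and no injection. The group titled CNT is called by that title, because its labels carry the same diet text as the other 3 groups. No group given empty liposomes was analysed here, so the drug cannot be told apart from the injection and its carrier. The labels do not say that libraries of a group come from separate animals, so the p-values measure the spread between these libraries only.

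Ribosomal proteins are assembled with ribosomal RNA into a large subunit, which joins amino acids, and a small subunit, which reads the mRNA. Their mRNAs are among the most abundant in most cells, and in mammals they start with a run of pyrimidines through which the kinase mTORC1 controls their translation. The liver makes most plasma proteins and so carries a large ribosome pool. Ribosomal protein genes have an unusual number of processed pseudogenes, intronless copies pasted elsewhere in the genome by reverse transcription, and short reads from a parent and its copies can be hard to tell apart.

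Compared per kilobase of transcript, on the log2 scale, the 64 genes ran from 3.48 to 12.04 with a median of 8.12, as means of the 12 libraries. The highest was Rplp1, a protein of the acidic stalk that recruits translation factors, at 12.04, and Rpl4 was also among the highest, at 11.69. The lowest were Rpl21 at 3.48, Rpl12 at 4.22 and Rpl11 at 4.25. Such a span of levels stands beside the fact that a ribosome holds most of these proteins in equal number. The median per kilobase was 7.88 for the large subunit and 9.12 for the small subunit, and this is a description of levels, with no test.

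The 16 genes under the filter included proteins that every ribosome holds. Rps6, the small subunit protein phosphorylated by S6 kinase, had deposited log2 values of 1.88, 1.96 and 1.98 in curcumin libraries, 1.88, 1.95 and 2.07 in calcitriol libraries, 1.94, 1.89 and 1.94 in HFHS libraries, and 1.95, 1.89 and 1.96 in CNT libraries. Its values overlapped in all 4 groups. Rpl19, Rpl23a, Rpl24, Rpl38, Rps7, Rps12, Rps13, Rps16, Rps23, Rps27 and Rps29 were also under the filter. So were Rpl3l, Rpl10l and Rpl39l, paralogs known for muscle or testis, of which Rpl10l was listed at 0 in all libraries. Just outside the filter lay Rps27, with a mean of 3.22 and 2 libraries above 3.32, and just inside lay Rpl36 and Rpl36a, with means of 3.66 and 3.69.

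The level of a gene went with how much of its coding sequence is its own. For each gene, the share of 50-base words of the coding sequence that occur in no other annotated gene was counted. The rank correlation between this share and the level per kilobase was 0.66 over the 80 genes, and 0.86 over 77 when the 3 muscle or testis paralogs were left out. Rpl10l, listed at 0 in all libraries, entered the 80 at -0.03 per kilobase. It thus ranked above Rpl39l (-0.07) and Rpl3l (-1.08), although its 0 may not be a measured level. The 29 genes with no word of their own had a median level per kilobase of 4.40, and 12 of them were under the filter. The 51 genes with words of their own had a median of 8.70, and 4 of them were under the filter, 3 being those paralogs. The other protein-coding genes tested had a median share of 100% (n = 12009), and 0.841% of them had no word of their own. These correlations are descriptions across genes that share the same 12 libraries. The measure, the split at 0 and the leaving out of the paralogs were chosen after the levels were seen. Counted over every annotated transcript in place of the coding sequence, the correlation with level per kilobase was 0.26 with 50-base words and 0.44 with 100-base words.

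**Figure D1:**
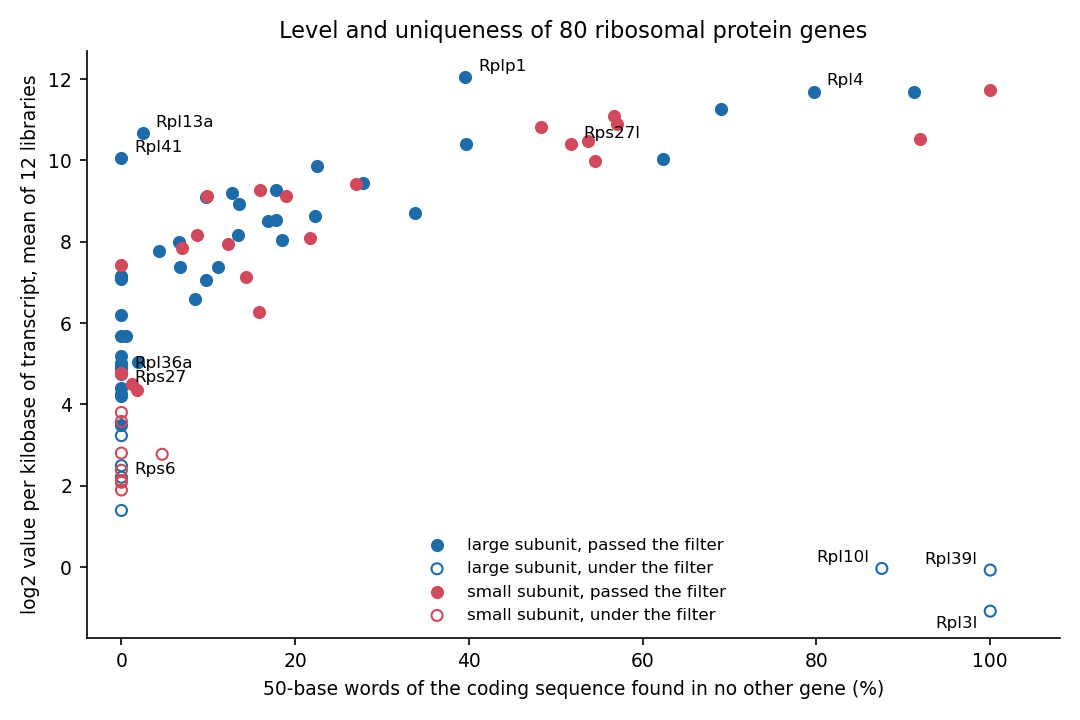
Each point is one of 80 ribosomal protein genes. The horizontal axis is the share (%) of 50-base words of its coding sequence found in no other gene, the vertical axis its log2 value per kilobase of transcript (mean of 12 libraries); filled points passed the filter. Genes without words of their own have a median of 4.40 and the others 8.70, and Rpl3l, Rpl10l and Rpl39l lie apart at the lower right. Rpl10l, listed at 0 in all libraries, is drawn from that 0.

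Near-identical copies were common. With at least 95% identity over at least 80% of the coding sequence, 573 copies were found for 74 of the 80 genes, and 546 of them are annotated as processed pseudogenes. Of the copies, 460 are rows of the deposited tables, 163 of these at 0 in all libraries, and 29 passed the filter. For 10 of the 64 genes a copy was higher per kilobase than its parent, and for 8 of them such a copy is annotated, or named with a -ps ending, as a pseudogene. Rpl31-ps8 was at 8.02, and Rpl36a-ps2 at 5.72 against 4.74 for Rpl36a, all log2 levels per kilobase. Rpl10-ps3, at 7.79 against 5.68 for Rpl10, and BC004004, at 8.34 against 3.48 for Rpl21, are annotated as protein-coding. How reads that fit several places were counted is not given in the sources used here, so the levels of genes with few words of their own are uncertain. Rpl41 is an exception, with no coding word of its own and 10.06 per kilobase, and so is Rpl13a, with 2.50% of its words its own and 10.67.

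Rps27 and its paralog Rps27l show the contrast. Both encode a zinc finger protein of the small subunit, and Rps27l is known as a target of p53. Rps27 has 4 near-identical copies and no coding word of its own, while Rps27l has no such copy and 51.7% of its words are its own. Per kilobase Rps27 was at 4.76 and Rps27l at 10.40. A 100% identical copy of the Rps27 coding sequence, Rps27rt, stood at 6.35. The coding sequences, read from GENCODE M21 transcripts of GRCm38 (Rps27 on chromosome 3, Rps27l on chromosome 9), are both 252 bases without the stop codon. They differ at 60 positions, shown in capitals, and share no identical run longer than 11 bases, so no 50-base word of one is found in the other.
Rps27: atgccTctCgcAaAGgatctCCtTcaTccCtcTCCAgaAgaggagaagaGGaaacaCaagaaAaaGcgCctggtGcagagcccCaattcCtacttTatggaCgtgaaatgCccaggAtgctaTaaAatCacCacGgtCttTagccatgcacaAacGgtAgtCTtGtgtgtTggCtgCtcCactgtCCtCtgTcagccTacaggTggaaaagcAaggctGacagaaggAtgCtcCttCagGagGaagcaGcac
Rps27l: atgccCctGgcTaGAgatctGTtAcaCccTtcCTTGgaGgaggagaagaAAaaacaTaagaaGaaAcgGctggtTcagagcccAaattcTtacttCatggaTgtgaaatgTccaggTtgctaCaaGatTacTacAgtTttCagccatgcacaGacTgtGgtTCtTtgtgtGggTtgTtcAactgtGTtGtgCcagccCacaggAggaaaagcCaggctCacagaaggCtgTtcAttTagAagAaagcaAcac

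Before the comparisons, the libraries themselves were set side by side. HFHS libraries 1 and 3 stood apart from HFHS library 2 in the 5 markers of stellate cells and fibroblasts, with mean deviations of 1.18 and 1.22 against -0.07, so the counts and medians of the 64 genes, and the calls of the other genes named, are also given without this pair of libraries. The depth of the libraries is unknown, since counts were not analysed here. In bulk liver, fewer cells of a type and less RNA per cell cannot be told apart.

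The 64 genes moved together by small amounts. Their mean deviation from the 12-library means was 0.01, 0.08 and -0.03 in curcumin libraries, -0.12, -0.05 and -0.07 in calcitriol libraries, -0.003, -0.07 and -0.003 in HFHS libraries, and 0.05, 0.04 and 0.17 in CNT libraries (log2). The 3 calcitriol libraries were all below 0, the 3 CNT libraries all above 0, and the largest deviation belonged to CNT library 3. In CNT library 3, 56 of the 64 genes were above their own mean, and in calcitriol library 1 only 6 were. The group means were 0.02 ± 0.06 for curcumin, -0.08 ± 0.03 for calcitriol, -0.03 ± 0.04 for HFHS and 0.09 ± 0.07 for CNT (SD, n = 3 each). Across libraries, each gene correlated with the mean of the other members at a median Pearson r of 0.75 (n = 12 libraries, which all the genes share). The median r was 0.82 for the 47 genes with coding words of their own and 0.43 for the 17 without. In 49 genes r was over 0.5, and in 7 it was below 0, the lowest being Rpl27 at -0.59.

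**Figure D2:**
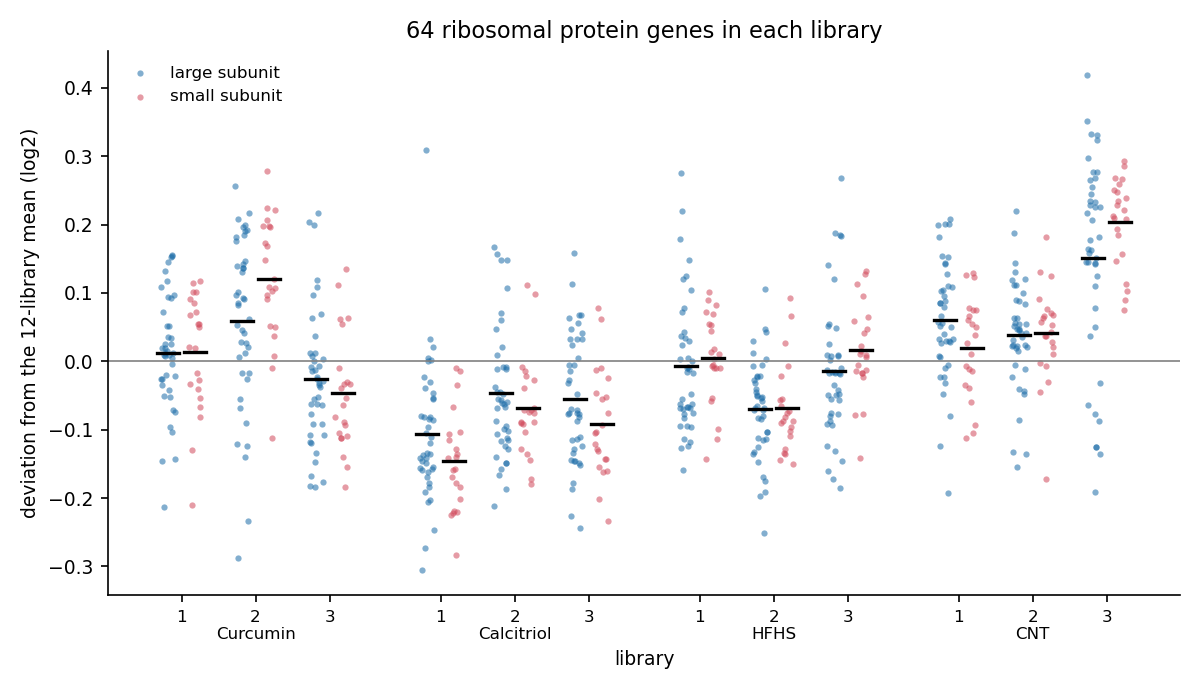
Each point is one of the 64 genes in one library, as its deviation (log2) from its own mean over 12 libraries; libraries run along the horizontal axis as curcumin, calcitriol, HFHS and CNT, 1 to 3 each, and bars are the means of the large and small subunit genes. The bars of the 3 calcitriol libraries lie below 0 and those of CNT library 3 are the highest.

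The subunits differed little from each other. The large subunit's mean deviation minus the small subunit's was -0.01 ± 0.04 in curcumin, 0.03 ± 0.01 in calcitriol, -0.01 ± 0.02 in HFHS and -0.005 ± 0.05 in CNT livers (log2, SD, n = 3 each). The calcitriol values, 0.04, 0.02 and 0.04, were all above the 3 HFHS values and overlapped with the CNT values, which ran from -0.05 to 0.04. They were also above the 3 curcumin values, but calcitriol library 2 (0.0211) and curcumin library 3 (0.0204) were nearly equal. No test was made on these scores.

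HFHS against CNT. One of the 64 genes passed the test, Rpl36a, which fell in HFHS livers, against a background of 11.9% of all genes called, 6.55% that rose and 5.36% that fell. The change was below 0 for 54 of the 64 genes, against 52.1% of all genes tested, with a median of -0.12 (log2) beside -0.01 for all genes. The median was -0.14 for the large subunit, with 34 of 42 genes below 0, and -0.11 for the small subunit, with 20 of 22 below 0. At an unadjusted p under 0.05 there were 16 genes, against 31.9% of all genes, and in 23 genes every HFHS value lay below every CNT value, against 14.1% of all genes. The number of genes called among all tested was 1505 here, and ranged from 135 without CNT library 2 to 3717 without HFHS library 2, with 216 without HFHS library 1, 269 without HFHS library 3 and 538 without CNT library 1. It was 13 with the HFHS and CNT groups alone in the fit, so the share called is not a fixed background. Leaving out CNT library 3 brought the median to -0.07.

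Rpl36a encodes a zinc-binding protein of the large subunit (ENSMUSG00000079435, GRCm38 chromosome X, 134585654 to 134588062, plus strand). Its deposited values were 3.63, 3.66 and 3.57 in HFHS libraries, against 3.89, 3.81 and 4.02 in CNT libraries. The HFHS and CNT values did not overlap. The change was -0.29 ± 0.08 (SE, log2; adjusted p = 0.0345, limma with Benjamini-Hochberg adjustment). The call was lost without HFHS library 1 (adjusted p = 0.0974), HFHS library 3 (0.117), CNT library 1 (0.0724), CNT library 2 (0.0651) or CNT library 3 (0.0815), and adjusted p was 0.419 without HFHS libraries 1 and 3 together and ran from 0.0149 to 0.419 over the settings. The gene lies close to the filter and has no coding word of its own, and its identical pseudogene copy Rpl36a-ps2 had a change of 0.07.

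Rpl36al, an autosomal paralog of Rpl36a that encodes a nearly identical protein, stood at 8.90 per kilobase, against 4.74 for Rpl36a, both log2 levels. Its change in HFHS against CNT was -0.08 (adjusted p = 0.646). Like Rpl36a, it has no 50-base coding word of its own.

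Of the genes that did not pass in HFHS against CNT, Rps2, a small subunit protein, had the next smallest p. Its values were 9.30, 9.37 and 9.25 in HFHS libraries, against 9.52, 9.52 and 9.62 in CNT libraries, a change of -0.25 ± 0.08 (SE; adjusted p = 0.0671). Rpl7 was nearly constant at 10.03 in the 3 HFHS libraries, against 10.26, 10.19 and 10.24 in CNT libraries (-0.20 ± 0.07, SE; adjusted p = 0.0682). For both genes the groups did not overlap, and neither passed. Rpl6 had -0.17 ± 0.06 (SE; adjusted p = 0.0732) and Rpl35a -0.20 (adjusted p = 0.0751). Without HFHS libraries 1 and 3 no gene passed, and the median over the 64 was -0.16.

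Calcitriol against CNT. This comparison had the lowest median of the 6, -0.20 (log2) beside -0.004 for all genes, and 2 genes passed, Rpl6 and Rpl36a, both of which fell in calcitriol livers. The background was 4.04% of all genes called, 1.77% that rose and 2.27% that fell; it was 511 genes, and 73 to 609 with single libraries left out, lowest without calcitriol library 3 and highest without CNT library 3. The change was below 0 for 59 of the 64 genes, against 50.8% of all genes, among them all 22 small subunit genes and 37 of 42 large subunit genes. The medians were -0.20 for each subunit. At an unadjusted p under 0.05 there were 34 genes, against 23.4% of all genes, and 38 genes had every calcitriol value below every CNT value, against 17.4% of all genes. Leaving out CNT library 3 brought the median to -0.14.

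Rpl6, an RNA-binding protein of the large subunit (ENSMUSG00000029614, GRCm38 chromosome 5, 121204481 to 121209241, plus strand), had values of 7.57, 7.63 and 7.65 in calcitriol libraries, against 7.85, 7.87 and 7.88 in CNT libraries. The CNT values had an SD of 0.012 and did not overlap with the calcitriol values. The change was -0.25 ± 0.06 (SE; adjusted p = 0.0375). Rpl36a had 3.65, 3.60 and 3.54 in calcitriol libraries, against 3.89, 3.81 and 4.02 in CNT libraries, with no overlap, and a change of -0.31 ± 0.08 (SE; adjusted p = 0.0446). With the replicate number as a block, which the calcitriol and CNT libraries share, Rpl36a lost its call (limma, adjusted p = 0.0575). Rpl6 kept its call without CNT library 3 (adjusted p = 0.0475) and lost it without CNT library 1 (0.07) or 2 (0.12) or calcitriol library 1 (0.118), 2 (0.0975) or 3 (0.107), and its adjusted p ran from 0.0361 to 0.12 over all settings. Rpl36a lost its call without any one of these 6 libraries: without calcitriol library 1 (0.0876), 2 (0.114) or 3 (0.161), or CNT library 1 (0.0888), 2 (0.0826) or 3 (0.0958), in a range over all settings from 0.0361 to 0.161.

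Rpl34, Rpl35a and Rpl7, all of the large subunit, followed without passing in calcitriol against CNT. Rpl35a had 8.10, 8.17 and 8.09 in calcitriol libraries, against 8.35, 8.29 and 8.50 in CNT libraries (-0.26 ± 0.07, SE; adjusted p = 0.0543). Rpl34 had -0.24 (adjusted p = 0.0541) and Rpl7 -0.26 (adjusted p = 0.0548). In all 3 genes the groups did not overlap. Rpl9, named after its values were seen, was the 1 gene with all calcitriol values above all CNT values, against 14.9% of all genes, and it has no coding word of its own.

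Curcumin against CNT. None of the 64 genes passed in limma, against 3.51% of all genes (1.6% rose and 1.91% fell), which was 443 genes, and 94 without curcumin library 2 to 949 without CNT library 3. The median was -0.06 (log2), -0.07 for the large and -0.06 for the small subunit, with 51 of 64 genes below 0 against 50.5% of all genes. At an unadjusted p under 0.05 there were 5 genes, against 18.6% of all genes. In 5 genes the curcumin values lay below all CNT values, against 12.7% of all genes. Rpl36a, Rpl6, Rplp0 and Rps4x, named after their values were seen, were among them. Rpl36a had 3.69, 3.62 and 3.60 in curcumin libraries, against 3.89, 3.81 and 4.02 in CNT libraries (-0.27 ± 0.08, SE; adjusted p = 0.0757). The curcumin and CNT values of this gene did not overlap. Rpl6 had -0.15 (adjusted p = 0.206), Rpl7 -0.15 (0.26) and Rplp0 -0.16 (0.269). The median was -0.02 without CNT library 3, -0.04 without curcumin library 3, and -0.09 without curcumin library 2 or without CNT library 2. The 3 comparisons with CNT share the CNT libraries, so their values are not independent.

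Curcumin against HFHS. None of the 64 genes passed in limma, against 0.301% of all genes (38 genes, 0.15% rose and 0.15% fell). The number over all genes was 3207 without HFHS library 2, 242 with the replicate number as a block, 2 without curcumin library 1, and 0 without any of the other 4 single libraries. The median was 0.05 (log2), 0.05 for each subunit, with 47 genes above 0 against 49.2% of all genes. At an unadjusted p under 0.05 there were 2 genes, against 24.7% of all genes. They were Rpl3, a large subunit protein near the peptidyl transferase centre, and Rpl36. Rpl3 had 8.22, 8.08 and 8.12 in curcumin libraries, against 8.33, 8.24 and 8.35 in HFHS libraries (-0.17 ± 0.07, SE; adjusted p = 0.158). Rpl36 had 3.75, 3.85 and 3.65 in curcumin libraries, against 3.58, 3.56 and 3.50 in HFHS libraries (0.21 ± 0.09, SE; adjusted p = 0.174). In both genes the groups did not overlap, in opposite directions. Rps10 had 0.16 (adjusted p = 0.212), Rpl22 0.15 (0.223) and Rplp2 0.17 (0.243). In 7 genes the curcumin values lay above all HFHS values, against 11.9% of all genes, and in Rpl3 below, against 11.6%. The median was 0.007 without curcumin library 2, 0.09 without curcumin library 3, and 0.09 without HFHS libraries 1 and 3, with no gene called.

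Calcitriol against HFHS. None of the 64 genes passed in limma, against 2.21% of all genes (0.973% rose and 1.23% fell), which was 279 genes, and 4 without calcitriol library 2 to 2194 without HFHS library 2. The median was -0.06 (log2), with 47 genes below 0 against 50.5% of all genes. It was -0.03 for the large subunit, with 27 of 42 genes below 0, and -0.08 for the small subunit, with 20 of 22 below 0. Of the 47 genes with coding words of their own, 38 were below 0 (median -0.06). Of the 17 without, 15 of them large subunit genes, 9 were below 0 (median -0.001). At an unadjusted p under 0.05 there were 5 genes, against 21.3% of all genes. Rpl37a, a small zinc-binding protein of the large subunit, had 6.89, 7.04 and 7.01 in calcitriol libraries, against 7.23, 7.23 and 7.38 in HFHS libraries (-0.30 ± 0.10, SE; adjusted p = 0.112). Its groups did not overlap. Rpl39 had -0.23 (adjusted p = 0.157), Rpl13 -0.25 (0.164), Rpl12 -0.25 (0.217) and Rps28 -0.20 (0.231). In 16 genes the calcitriol values lay below all HFHS values, against 11.8% of all genes, and in Rpl11 and Rpl27, named after their values were seen, above, against 12.6%. Without HFHS library 2, Rpl13 and Rpl39 passed. Without HFHS libraries 1 and 3, which left HFHS library 2 alone in its group, the median was -0.006.

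Curcumin against calcitriol. None of the 64 genes passed, and none of all genes did (0%), with limma and Benjamini-Hochberg adjustment. With the curcumin and calcitriol groups alone in the fit, 214 of all genes passed, and still none of the 64. The 0% is therefore not a fixed background. At an unadjusted p under 0.05 there were 16 of the 64 genes, against 14.8% of all genes (1873). With single libraries left out, this number ran from 1 without curcumin library 2 to 22 without curcumin library 3. It was 5 without calcitriol library 1 and 8 without curcumin library 1. The median was 0.11 (log2), with 54 of 64 genes above 0 against 50.9% of all genes. It was 0.10 for the large subunit and 0.16 for the small subunit, with 34 of 42 and 20 of 22 genes above 0. With single libraries left out, the median of the 64 ran from 0.08 without curcumin library 2 to 0.15 without curcumin library 3. In 19 genes the curcumin values lay above all calcitriol values, against 14.9% of all genes. Rps19, a small subunit protein mutated in human Diamond-Blackfan anaemia, had 8.87, 9.03 and 8.71 in curcumin libraries, against 8.64, 8.66 and 8.51 in calcitriol libraries (0.26 ± 0.08, SE; adjusted p = 0.243). Rps27l had 9.50, 9.62 and 9.37 in curcumin libraries, against 9.23, 9.27 and 9.20 in calcitriol libraries (0.27 ± 0.09, SE; adjusted p = 0.259). In both genes the groups did not overlap. Rpl18 had 0.19 (adjusted p = 0.264), Rpl22 0.20 (0.264) and Rpl37a 0.27 (0.267).

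**Figure D3:**
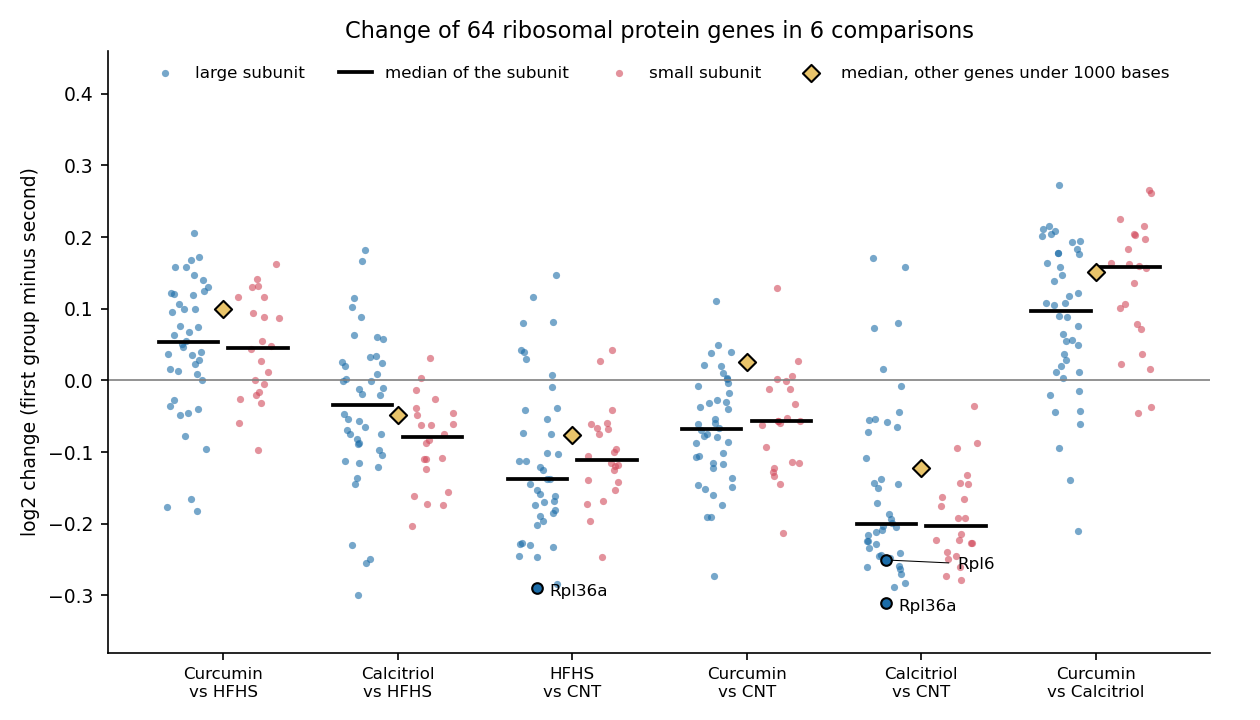
Each point is the log2 change of one of the 64 genes (vertical axis, first group minus second) in one of the 6 comparisons; bars are medians of the large and small subunit genes, diamonds the median of 638 other protein-coding genes with transcripts under 1000 bases, and ringed points the genes past the threshold. The subunit medians lie lowest in calcitriol against CNT, at -0.20, and above 0 in curcumin against HFHS and against calcitriol.

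**Figure D4:**
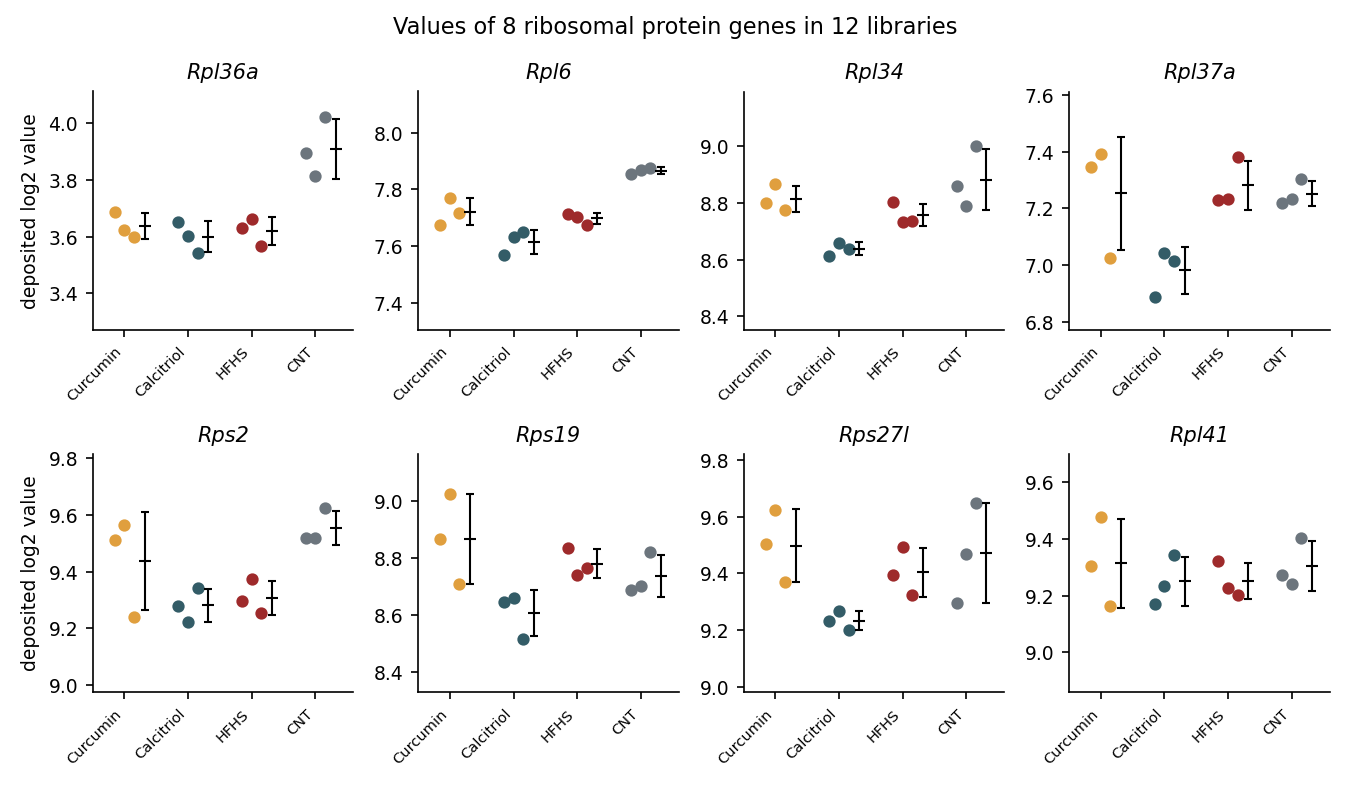
Deposited log2 values (vertical axis, each panel spanning the same range) of 8 genes in the 3 libraries of each group, in the order curcumin, calcitriol, HFHS, CNT; the bar beside each group is the mean ± SD. For Rpl36a and Rpl6 the CNT values lie above those of the other 3 groups, for Rps19 and Rps27l the calcitriol values lie below the curcumin values, and for Rpl41 the groups overlap.

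Transcript length moved with these differences. The 64 genes have a median principal transcript of 816 bases, against 2960 for the other protein-coding genes tested, and 41 of them are under 1000 bases. Among 638 other genes under 1000 bases the median change was 0.10 in curcumin against HFHS, -0.05 in calcitriol against HFHS, -0.08 in HFHS against CNT, 0.03 in curcumin against CNT, -0.12 in calcitriol against CNT and 0.15 in curcumin against calcitriol (log2). Among 3744 genes of 4000 bases and over, the same medians were -0.07, 0.03, 0.01, -0.04, 0.04 and -0.08. The short genes thus had medians of the same sign as the ribosomal protein genes in each comparison except curcumin against CNT. By library, the short genes had mean deviations of 0.08, 0.13 and -0.04 in curcumin, -0.06, -0.07 and -0.03 in calcitriol, -0.03, 0.01 and -0.05 in HFHS, and -0.06, -0.03 and 0.16 in CNT livers. They were thus below 0 in CNT libraries 1 and 2, where the ribosomal protein genes were above 0. The part of length in the results was not tested.

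Markers of hepatocytes and other cells of the liver were measured beside these genes. All 7 hepatocyte markers passed the filter, and their summed level was 20.65 to 20.98 in curcumin, 19.99 to 20.66 in calcitriol, 20.45 to 20.76 in HFHS and 20.67 to 20.97 in CNT livers (log2 of the sum). Cps1, a urea cycle enzyme, (-0.84) and Serpina1c (-1.07) fell in HFHS against CNT, and Cyp3a11 (-0.71) fell in calcitriol against CNT. The macrophage markers, 7 of 7 above the filter, had summed levels of 12.48 to 12.79 in curcumin, 12.76 to 13.03 in calcitriol, 12.52 to 13.13 in HFHS and 12.11 to 12.52 in CNT livers. The erythroid markers, 7 of 8 above the filter, had 13.40 to 13.53 in curcumin, 13.45 to 13.75 in calcitriol, 12.16 to 13.05 in HFHS and 12.02 to 13.12 in CNT livers. The 5 stellate and fibroblast markers had 12.34 to 12.39 in curcumin, 12.18 to 12.27 in calcitriol, 12.20 to 13.31 in HFHS and 11.87 to 12.14 in CNT livers. The 5 endothelial markers had 11.22 to 11.40 in curcumin, 11.86 to 11.98 in calcitriol, 11.29 to 11.86 in HFHS and 11.18 to 11.78 in CNT livers. All 5 were above 0 in calcitriol against CNT (median 0.39, none passed) and all 5 below 0 in curcumin against calcitriol (median -0.50, none passed). These comparisons hold the lowest and highest medians of the 64 genes. Of all genes tested, 49.2% were above 0 in calcitriol against CNT and 49.1% below 0 in curcumin against calcitriol. The pattern was not particular to endothelial markers. The 7 erythroid markers tested had the same signs (medians 1.02 and -0.12). Of the macrophage markers, 7 of 7 were above 0 (median 0.46) and 6 of 7 below 0 (-0.19). The hepatocyte markers had 7 of 7 below 0 (-0.46) and 5 of 7 above 0 (0.37). The stellate and fibroblast markers had 3 of 5 above 0 in both (0.10 and 0.14). Other markers were called as well. In HFHS against CNT, where 6.55% of all genes rose, the macrophage markers Gpnmb (2.64), Trem2 (1.08) and Cd68 (0.62) rose. Col3a1 (1.89), Lrat (0.62) and Dcn (0.53) of the stellate and fibroblast markers rose too, with the T cell marker Cd4 (0.40). In calcitriol against CNT, Csf1r (0.68), Clec4f (0.58) and Alas2 (0.81) rose. Alas2 also rose in curcumin against CNT (0.66). Alas2 (0.57) and the endothelial Clec4g (0.63) rose in calcitriol against HFHS. No marker of these lists was listed at 0. Their part in the results was not tested.

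Members with a known role of their own gave the following group means of deposited log2 values ± SD (n = 3 each). The stalk protein Rplp0 had 10.81 ± 0.07 in curcumin, 10.75 ± 0.07 in calcitriol, 10.80 ± 0.07 in HFHS and 10.97 ± 0.07 in CNT livers. Its partner Rplp1 had 11.08 ± 0.20 in curcumin, 10.97 ± 0.09 in calcitriol, 10.91 ± 0.06 in HFHS and 11.19 ± 0.12 in CNT livers, and Rplp2 had 8.73 ± 0.06 in curcumin, 8.56 ± 0.11 in calcitriol, 8.55 ± 0.04 in HFHS and 8.73 ± 0.18 in CNT livers. None of these 3 passed in any comparison. Rpl5 and Rpl11, which bind Mdm2 and hold it off p53 when free of ribosomes, did not pass either. Rpl5 had 7.24 ± 0.07 in curcumin, 7.24 ± 0.14 in calcitriol, 7.18 ± 0.03 in HFHS and 7.30 ± 0.24 in CNT livers. Rpl11 had 4.02 ± 0.14 in curcumin, 4.06 ± 0.08 in calcitriol, 3.88 ± 0.09 in HFHS and 3.98 ± 0.17 in CNT livers, and both lack coding words of their own.

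Rpl22, whose paralog Rpl22l1 lies outside the set, had 10.27 ± 0.08 in curcumin, 10.06 ± 0.10 in calcitriol, 10.12 ± 0.05 in HFHS and 10.26 ± 0.06 in CNT livers. Rpl22l1 had means of 6.57 in curcumin, 6.39 in calcitriol, 6.66 in HFHS and 6.80 in CNT livers, with a change of -0.41 in calcitriol against CNT (adjusted p = 0.0922). Neither passed in any comparison. Rpsa, the laminin receptor precursor, had 5.47 ± 0.10 in curcumin, 5.33 ± 0.09 in calcitriol, 5.46 ± 0.09 in HFHS and 5.53 ± 0.15 in CNT livers. The X-linked Rps4x had 9.05 ± 0.07 in curcumin, 9.04 ± 0.02 in calcitriol, 9.08 ± 0.13 in HFHS and 9.18 ± 0.03 in CNT livers. Rps14, whose loss marks a human myelodysplastic syndrome, had 10.14 ± 0.16 in curcumin, 9.94 ± 0.06 in calcitriol, 10.10 ± 0.06 in HFHS and 10.16 ± 0.10 in CNT livers. Rpl41, which encodes a very short peptide, had 9.32 ± 0.16 in curcumin, 9.25 ± 0.09 in calcitriol, 9.25 ± 0.06 in HFHS and 9.31 ± 0.09 in CNT livers. None of these 4 genes passed in any comparison.

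Of 8 ribosomal protein genes outside the naming rule, among them Rack1, Rps3a1, Rpl7l1, Rpl36al, Rpl22l1, Rps27rt and Fau, none passed in any comparison. Rack1, a scaffold on the small subunit, had group means of 11.91 in curcumin, 11.83 in calcitriol, 11.91 in HFHS and 12.05 in CNT livers. Rps3a1 had 8.15 in curcumin, 8.13 in calcitriol, 8.18 in HFHS and 8.34 in CNT livers. Fau, which encodes a ribosomal protein fused to a ubiquitin-like protein, had a change of 0.02 in calcitriol against CNT. The median of the 8 was -0.16 in calcitriol against CNT. Of 76 mitochondrial ribosomal proteins above the filter, 1 passed, Mrpl15, which fell in HFHS (-0.46, adjusted p = 0.0093) and in calcitriol livers (-0.39, adjusted p = 0.0186), both against CNT. In these comparisons 5.36% and 2.27% of all genes fell. The medians of the 76 were 0.12 in curcumin against HFHS, -0.16 in calcitriol against CNT, 0.17 in curcumin against calcitriol and 0.03 in curcumin against CNT.

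Of 19 other genes held to share the pyrimidine start, most are translation factors, and Gas5, Hnrnpa1, Npm1 and Tpt1 are not. Of the 19, all above the filter, 2 fell in HFHS against CNT, where 5.36% of all genes fell. They were the nascent chain factor Btf3 (-0.24, adjusted p = 0.0396) and the initiation factor subunit Eif3h (-0.26, adjusted p = 0.0442). Btf3 also fell in calcitriol against CNT (-0.29, adjusted p = 0.036), where 2.27% of all genes fell. The median of the 19 was -0.18 in HFHS against CNT and -0.17 in calcitriol against CNT. Below 0 were 18 and 17 of 19, against 52.1% and 50.8% of all genes. In HFHS against CNT the elongation factors Eef1a1 and Eef2 had -0.18 (adjusted p = 0.206) and -0.27 (0.0786), and Tpt1 had -0.22 (0.257), none of which passed.

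Of 42 genes of ribosome biogenesis, 3 fell, against 5.36% of all genes, and none rose in HFHS against CNT: the export adaptor Nmd3 (-0.35, adjusted p = 0.0161), the RNA polymerase subunit Polr1d (-0.25, adjusted p = 0.0315) and the polymerase I factor Rrn3 (-0.29, adjusted p = 0.0354). In calcitriol against CNT 4 fell, against 2.27% of all genes, and none rose. Of these 4, Dkc1 lost its call with the replicate number as a block (adjusted p = 0.0509), and the 3 with the smallest p were Polr1d (-0.33, adjusted p = 0.0194), Gnl3 (-0.42, adjusted p = 0.034) and Sbds (-0.29, adjusted p = 0.036). Gnl3 (-0.41, adjusted p = 0.0339) and the large subunit assembly ATPase Mdn1 (-0.47, adjusted p = 0.0249) fell in curcumin against CNT, where 1.91% of all genes fell. Mdn1 also fell in curcumin against HFHS (-0.55, adjusted p = 0.0426), and Dkc1 in calcitriol against HFHS (-0.31, adjusted p = 0.0458). The medians of the list were -0.10 in curcumin, -0.14 in calcitriol and -0.045 in HFHS livers, all against CNT. The nucleolar proteins Npm1 (-0.31, adjusted p = 0.0514), Ncl (-0.22, adjusted p = 0.102) and Fbl (-0.27, adjusted p = 0.146) did not pass in calcitriol against CNT.

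Of 26 genes of the mTORC1 pathway, 19 were below 0 in HFHS against CNT (median -0.05) and 21 in calcitriol against CNT (median -0.10), none of them past the test. Of all genes tested, 52.1% and 50.8% were below 0 in these comparisons, with medians of -0.01 and -0.004. In HFHS against CNT 3 rose, against 6.55% of all genes: Rragd, a Rag GTPase (0.51, adjusted p = 0.0452), Ddit4, an inhibitor of the pathway (0.64, adjusted p = 0.0483), and Mlst8, a subunit of the kinase complex (0.22, adjusted p = 0.049). Mlst8 also rose in curcumin against CNT (0.27, adjusted p = 0.046), where 1.6% of all genes rose. With the replicate number as a block in limma, Mlst8 lost its call in HFHS against CNT (adjusted p = 0.0571) and in curcumin against CNT (0.0643). Ddit4 lost its call in HFHS against CNT (0.0636), and Rragd kept its call (0.0401). Of 22 genes of ribosomal stress and p53, the p53 targets Phlda3 (0.85, adjusted p = 0.0308) and Btg2 (0.74, adjusted p = 0.0447) rose in HFHS against CNT, against 6.55% of all genes. Hbs1l, which frees stalled ribosomes, fell in HFHS (-0.50, adjusted p = 0.0053), in curcumin (-0.37, adjusted p = 0.0174) and in calcitriol livers (-0.34, adjusted p = 0.0282), each against CNT. Of all genes, 5.36%, 1.91% and 2.27% fell in these comparisons. Cdkn1a, the p53 target that encodes p21, had 8.03, 6.40 and 6.36 in HFHS libraries, against 5.72, 5.66 and 5.44 in CNT libraries, and did not pass (1.32, adjusted p = 0.0578). Myc and Mdm2 did not pass either, with 0.44 and 0.02 in HFHS against CNT.

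These calls of other genes depended on the libraries in the fit. Over all genes tested, 11.9% were called in HFHS against CNT, 4.04% in calcitriol against CNT and 3.51% in curcumin against CNT. Of 240 genes of the other lists and markers, 21 were called in HFHS against CNT, and without HFHS libraries 1 and 3 together none of the 21 was called, although all 21 kept their sign. HFHS library 2 alone then stood for its group and was assumed to vary like the other groups. Phlda3 then had 0.19 and Rragd 0.16 (adjusted p = 0.531 and 0.645). Leaving out single HFHS or CNT libraries in turn, 3 of the 21 stayed called each time, Hbs1l, Mrpl15 and Serpina1c. The calls of Mdn1 in curcumin against HFHS (adjusted p = 0.634) and of Dkc1 in calcitriol against HFHS (0.245) were lost without HFHS libraries 1 and 3 as well. In calcitriol against CNT 1 of 11 calls, the erythroid gene Alas2, stayed without each single library, and in curcumin against CNT none of 5 did.

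Outside the set, the 5 protein-coding genes whose values followed the mean deviation of the 64 most closely were Laptm4a (Pearson r = 0.96), Ptges3 (0.96), Efhd2 (0.95), Eef1b2 (0.93) and Rack1 (0.93), each over the same 12 libraries. This is a ranking of 12009 genes and has no test.

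The starts of the genes were also read, for members with and without coding words of their own. RefSeq windows of GRCm38.p6, from 250 bases before to 50 after an annotated start, matched 47 of the 64 genes by symbol, with 57 windows. These are not the same 47 genes as those with coding words of their own, since Rpl36a, which has none, is among them. The sequence CCGGAAG, the core bound by ETS factors, was found on either strand in 36.8% of the 57 windows, against 8.86% of 32851 windows of all genes. GGGCGG, on either strand, was in 63.2% against 35.7%, and AAGATGGCG, the core bound by YY1, on either strand, in 7.02% against 1.40%. CTTTC on the sense strand within 20 bases of the start was in 28.1% against 5.49%. CTTCCGG is the reverse strand of CCGGAAG and is counted with it. These 4 were picked after the windows had been seen, and a match is a description of letters. The windows of all genes were not limited to genes that passed the filter in liver.

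The windows of the called genes and of 2 others named above are shown from 80 bases before to 20 after the start, 5′ to 3′ on the gene's strand. CCGGAAG on either strand and CTTTC near the start are in capitals. They are Rpl36a at chrX:134585574-134585673 (plus strand), Rpl6 at chr5:121204421-121204520 (plus strand), Rpl34 at chr3:130730318-130730417 (minus strand) and Rps10 at chr17:27635225-27635324 (minus strand). Rpl34 has 2 annotated starts, and the window shown is that of the second. Rpl36a holds none of these letters in this window, Rpl6 and Rpl34 hold the ETS core, and Rps10 holds both. The window of the other Rpl34 start, chr3:130730379-130730478, holds neither.
Rpl36a: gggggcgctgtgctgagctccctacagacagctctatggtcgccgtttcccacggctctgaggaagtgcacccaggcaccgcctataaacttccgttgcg
Rpl6: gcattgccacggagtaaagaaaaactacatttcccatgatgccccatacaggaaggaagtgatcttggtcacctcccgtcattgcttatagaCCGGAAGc
Rpl34: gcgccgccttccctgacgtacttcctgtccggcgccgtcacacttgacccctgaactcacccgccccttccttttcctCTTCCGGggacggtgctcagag
Rps10: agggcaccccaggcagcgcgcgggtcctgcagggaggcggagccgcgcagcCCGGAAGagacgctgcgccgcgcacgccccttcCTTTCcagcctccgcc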

How the data were processed

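Whole-liver RNA of 12 libraries had been sequenced, and the authors deposited 1 table of log2 values per library; how they were transformed is not named. The submitters' processing notes list STAR 2.4.0d, DESeq2 1.8.1 and GRCm38, with no role for each; the handling of reads that fit several places is not given in the sources used here. Of 45792 rows, 23411 were at 0 in all libraries, and no row was at 0 in some only, the pattern of a regularized log2, so changes of weakly expressed genes may be pulled toward 0. Counts were not used: depth is unknown, so intervals for counting error cannot be had.

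Symbols came from GENCODE M21 (126 rows with values had none). The 12637 genes with at least log2 of 10 in 3 libraries were tested in limma 3.58.1 (R 4.3.3): 4 group means over 12 libraries, eBayes with trend and robust estimation, two-sided, Benjamini-Hochberg over all tested genes, threshold 0.05, tested on simulated data. Called members, up to 8 largest in each direction, were named, with the 5 smallest p where fewer than 5 passed, members given for their role, the 3 highest and 3 lowest per kilobase, and up to 3 called genes of each other list. Copies were sought with blastn 2.17.0. Members and lists were chosen with earlier results of these data known. All 12 libraries entered each fit. Libraries of the same number deviated together from their group means in calcitriol and CNT (correlations of 0.205, 0.253 and 0.372). So did those in curcumin and HFHS (0.16, 0.321 and 0.162). These may be paired, but the labels give only numbers in titles and do not say so. In the other 4 comparisons at least 1 of 3 correlations was under 0.1. The p-values come from the fit without pairing, except where the replicate block is named, and that block spans all 4 groups. Alternatives were the groups fitted, filter, scaling, moderation, a replicate block, and libraries left out. Some members and 1 coding sequence are not reported here by name; they stay in the counts and medians.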

Additional observations from a re-analysis of the deposited data

How the results depend on the processing

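The medians of all 6 comparisons kept their sign under the alternatives named in the methods. HFHS against CNT gave 0 genes called with the HFHS and CNT groups alone in the fit, 3 with quantile normalization (Rpl28, Rpl36 and Rpl36a), 0 without HFHS libraries 1 and 3 together, and 0 to 2 with single libraries left out (without CNT library 3 the gene called was Rpl36, without HFHS library 2 they were Rpl36a and Rps2). Calcitriol against CNT gave 0 with its pair of groups alone, 0 with no filter on low values, 4 with median centring (Rpl34, Rpl35a, Rpl36a and Rpl6) and 0 to 1 with single libraries left out, and its median ran from -0.231 to -0.144. With the replicate block, calcitriol against CNT gave 1 (Rpl6; Rpl36a had an adjusted p of 0.0575), and no other call of the 64 genes changed; over these settings adjusted p ran from 0.0361 to 0.161 for Rpl36a and from 0.0361 to 0.12 for Rpl6. Libraries of the same number correlated at -0.383 to 0.372, and 9 of 18 pairs were over 0.1; 9 of 12 libraries were closest to one of their own number. Calcitriol against HFHS gave 0 to 2 with single libraries left out, and its median was -0.0058 without HFHS libraries 1 and 3. The large minus small subunit score of HFHS was -0.047 with only members of a mean of at least 10, against -0.014 for all. That of CNT changed sign, to 0.036 from -0.005. The scores of curcumin (-0.016 against -0.014) and calcitriol (0.027 against 0.033) moved less. With only the 47 members that have coding words of their own, an alternative chosen after seeing the data, the medians were 0.05, -0.06, -0.14, -0.07, -0.22 and 0.14 for curcumin and calcitriol against HFHS, HFHS, curcumin and calcitriol against CNT, and curcumin against calcitriol. For the genes of the other lists, also settings chosen after seeing the data, the block kept 19 of 21 calls in HFHS against CNT, 4 of 5 in curcumin against CNT, 10 of 11 in calcitriol against CNT, 0 of 3 in calcitriol against HFHS and 1 of 1 in curcumin against HFHS. Fits with fewer libraries or groups have fewer residual degrees of freedom. The cause of these shifts was not tested.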
